A study of Mus musculus with 6 samples.

Results

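Rapgef5 encodes a guanine nucleotide exchange factor (GEF), a protein that switches small GTPases of the Rap family to their active, GTP-bound state. It is described here with its relatives Rapgef1, Rapgef2, Rapgef3, Rapgef4 and Rapgef6 and with Rap1a and Rap1b, the GTPases they act on. The members were selected on the gene symbol of each probe set, by the highest mean over the arrays where a gene has several. Rapgef5 leads because its CKO values had been seen to be higher in these same arrays. Of the 8 genes, 7 were measured with 1 probe set each, among 19505 named genes. No probe set carries the name Rapgef4 in the annotation used here, so that gene is not analysed here.

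The arrays hold RNA of microglia, the macrophages that live in the brain, taken from female C57BL/6 mice at the peak of experimental autoimmune encephalomyelitis (EAE), an induced inflammation of the nervous system. The tested mice are labelled as B cell conditional knock-outs (CKO, 3 arrays) and the others as control (3 arrays). The title of the series links the knock-out to B cells that make GM-CSF, but neither the deleted gene, the Cre driver, the genotype of the controls nor the age is stated in the labels. Mice of both groups were injected under the skin with 100 µg of recombinant myelin oligodendrocyte glycoprotein in incomplete adjuvant and received 300 ng of pertussis toxin into a vein on the same day and 48 h later. The labels do not tie the arrays to separate animals, so SDs and tests cover the spread between these arrays, which may be technical. An SE or 95% interval is the moderated one of limma, which borrows variance from all probe sets and can exceed the spread of a gene's own arrays.

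Rap GTPases cycle between an inactive GDP-bound and an active GTP-bound form. GEFs load GTP, and GTPase-activating proteins (GAPs) return the protein to rest. In leukocytes, active Rap1 recruits adaptors and talin to integrins and so strengthens adhesion and migration, and different GEFs answer to different signals, such as cyclic AMP or phosphorylated adaptors.

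Values are log2 expression as deposited, so a difference of 1 is a doubling of signal. The 9 measured microglial markers averaged 16.88 to 17.52 on the CKO arrays and 16.45 to 16.93 on the control arrays. The lowest value of any probe set was 2.93, so a marker that is not expressed would not read 0. Markers of other cells were also measured. The 10 astrocyte markers averaged 12.97, 9.38 and 9.36 on CKO replicates 1, 2 and 3, and 9.34, 11.41 and 8.83 on control replicates 1, 2 and 3. Thus CKO replicate 1 and control replicate 2 stood apart from the rest of their groups. Both are called astrocyte-rich below, but they were also the highest of their groups for other neural markers. On CKO replicate 1 and control replicate 2, neuron markers averaged 11.1 and 10.06 and oligodendrocyte markers 10.11 and 9.62. Oligodendrocyte precursor markers averaged 7.61 and 7.28 there. Microglial markers were also highest on CKO replicate 1 (17.52), whereas control replicate 2 (16.85) lay below control replicate 1 (16.93). The 8 measured T cell markers averaged 6.46 to 7.18 in CKO and 8.54 to 10.55 in control, and the 10 monocyte markers 10.89 to 11.76 in CKO and 12.46 to 13.18 in control. Probe sets spread less widely on CKO replicates 2 and 3, with interquartile ranges of 3.08 and 3.11. For CKO replicate 1 that range was 4, and for the controls it was 3.66 to 3.74. Because whole isolates were hybridised, fewer cells of a type and less RNA per cell cannot be told apart.

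Rapgef5, also known as MR-GEF or Repac, activates Rap GTPases and lacks the cyclic AMP binding region of the Epac proteins. In Xenopus embryos it is known for a role in bringing beta-catenin into the nucleus. Its probe set had log2 values of 13.49, 13.46 and 13.54 on CKO replicates 1, 2 and 3, and of 12.19, 12.57 and 12.37 on control replicates 1, 2 and 3. The groups did not overlap, and 0.89 separated the lowest CKO array from the highest control array. The mean was 13.5 ± 0.04 in CKO and 12.38 ± 0.19 in control (SD, n = 3 each), a difference of 1.12 (SE 0.26), or 2.17-fold in signal. This difference is the one that put Rapgef5 first, so it is given as a description without a test. Rapgef5 was not among the 2 of 22206 probe sets (0.00901%) that passed an adjusted p of 0.05 in the limma comparison of CKO with control. CKO arrays all lay above control arrays for 5.94% of all probe sets and all below them for 8.48%.

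**Figure D1:**
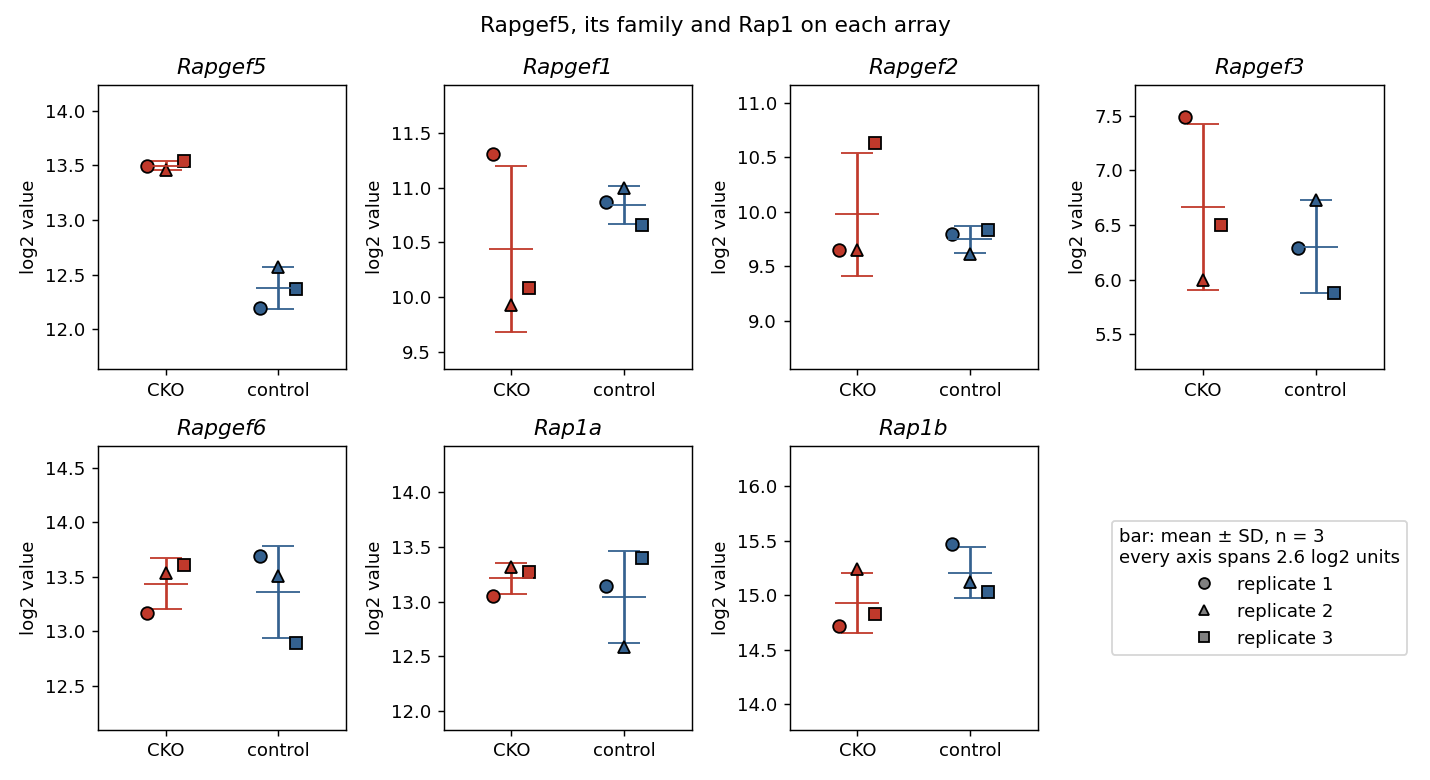
Log2 value of each measured gene on every array, CKO left of control, with the mean and SD of 3 arrays as bars and 1 symbol per replicate number. Each panel spans the same number of log2 units. The Rapgef5 groups are apart, at 13.46 to 13.54 in CKO and 12.19 to 12.57 in control, and the groups of the other 6 genes overlap.

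The RefSeq promoter table of build GRCm38.p6 holds 2 transcription starts for Rapgef5, on the plus strand of chromosome 12. The 250 bases before each are shown because the probe set gives 1 value for the gene and its probes are not assigned to either start here. In the upstream sequence the capitals mark a direct repeat, and in the downstream sequence they mark GC boxes (GGGCGG or its complement).
Rapgef5 upstream start, chr12:117516276-117516525, plus strand: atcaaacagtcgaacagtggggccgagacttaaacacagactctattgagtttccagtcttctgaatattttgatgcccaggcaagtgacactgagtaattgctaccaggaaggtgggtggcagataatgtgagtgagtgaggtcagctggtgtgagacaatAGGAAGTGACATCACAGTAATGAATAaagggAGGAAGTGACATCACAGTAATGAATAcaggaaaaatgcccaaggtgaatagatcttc
Rapgef5 downstream start, chr12:117533678-117533927, plus strand: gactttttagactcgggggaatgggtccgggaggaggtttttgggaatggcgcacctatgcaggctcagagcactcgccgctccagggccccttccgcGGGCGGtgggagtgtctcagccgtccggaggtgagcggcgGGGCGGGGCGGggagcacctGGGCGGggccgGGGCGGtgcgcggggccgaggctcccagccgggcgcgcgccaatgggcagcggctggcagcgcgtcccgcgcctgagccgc

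The sequences before these starts are of different kinds. Before the upstream start, 43.6% of bases were G or C with 2 CpG dinucleotides, and no GC box was found. This stretch holds 2 copies of a 26-base run with 5 bases between them, and 0.661% of 32851 mouse promoter windows hold a direct repeat of at least that length. The second copy begins inside a match to GAGGAAGT, the core recognised by PU.1, a transcription factor of myeloid cells. The PU.1 core occurs on either strand in 2.44% of windows. Before the downstream start, 74.8% of bases were G or C, with 30 CpG dinucleotides and 5 GC boxes, of which 1 adjacent pair shares a base. GC boxes occur in 32.7% of windows, and the median window has 52.4% G and C. These matches describe letters and not sites in use.

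Promoter windows were found for 7 of the 8 genes, 9 windows in all, with no entry matched for Rap1a. The PU.1 core was in 1 of the 9, the upstream Rapgef5 window. GC boxes numbered 3 before Rapgef3, 5 before Rapgef4, 1 before Rapgef6 and 4 before Rap1b, and 0 before Rapgef1 and in both Rapgef2 windows. A full cyclic AMP response element (TGACGTCA, held by 1.55% of windows) was found in the Rap1b window alone. It is shown in capitals because cyclic AMP is one of the signals that reach Rap1 through the Epac proteins.
Rap1b, chr10:117845989-117846036, minus strand: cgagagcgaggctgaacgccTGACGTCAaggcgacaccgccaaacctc

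None of the other 6 measured genes passed the test, and each had overlapping groups. Their differences ranged from -0.40 to 0.36 with a median of 0.12, against a median of 0.06 over all probe sets. Adjusted p ran from 0.728 to 0.947 (limma, Benjamini-Hochberg over all probe sets), and at an unadjusted p under 0.05 the count was also 0 of 6, where 9.89% of all probe sets reached it. The 95% intervals below show how large a difference these arrays could have missed. Whether the Rapgef5 difference exceeds those of its relatives was not tested.

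Rapgef1 is the factor recruited by Crk adaptors when receptors and integrins are phosphorylated. It read 11.31, 9.93 and 10.08 on CKO replicates 1, 2 and 3, and 10.87, 11 and 10.66 on control replicates 1, 2 and 3. CKO replicate 1 was therefore the highest of all 6 arrays and the other CKO arrays the lowest. The difference was -0.40 (95% interval -1.30 to 0.50, limma adjusted p = 0.728). It became -0.84 without CKO replicate 1 (adjusted p = 0.079), when only the narrow-range arrays stand for CKO, and -0.15 without CKO replicate 2.

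Rapgef2 and Rapgef6, the PDZ-GEFs, carry a PDZ domain and bind Rap itself. Rapgef2 read 9.65, 9.65 and 10.63 in CKO and 9.8, 9.61 and 9.83 in control, so its difference of 0.23 (95% interval -0.54 to 1) was -0.10 without CKO replicate 3. Rapgef6 read 13.17, 13.53 and 13.61 in CKO and 13.69, 13.51 and 12.89 in control, with a difference of 0.07 (95% interval -0.64 to 0.78). Its lowest control array, replicate 3, lay below every CKO array, while control replicate 1 lay above them all.

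Rapgef3, or Epac1, opens when it binds cyclic AMP and is known from vascular endothelium, where it tightens cell junctions. It read 7.49, 6 and 6.5 in CKO and 6.29, 6.73 and 5.88 in control (difference 0.36, 95% interval -0.61 to 1.33, limma adjusted p = 0.771). The highest array of each group was the one with the highest astrocyte markers, as it also was for Rapgef1. Without CKO replicate 1 the Rapgef3 difference was -0.05. Its mean over the 6 arrays was 6.48, below the array medians of 7.13 to 7.34. The 10 endothelial markers averaged 7.61 to 7.72 in CKO and 7.81 to 7.96 in control. Of these markers, 5 had a positive and 5 a negative difference, and the brightest, Ly6c1 (mean 14.9), differed by -1.38. Ly6c1 read 14, 13.6 and 15.05 in CKO and 16.16, 14.29 and 16.33 in control. The monocyte marker Ly6c2 was close to it on each array, at 13.87, 13.07 and 14.88 in CKO and 16.06, 14.02 and 16.25 in control. Because Ly6c1 weighs on the endothelial mean, the gap between the group means is not read as an endothelial difference. The part of other cells in the Rapgef3 values was not tested. For Rapgef5, the astrocyte-rich control replicate 2 was the highest control (12.57), while the astrocyte-rich CKO replicate 1 lay between the other CKO arrays (13.49). The Rapgef5 difference was 1.22 when both arrays were left out. The part of astrocytes, neurons and oligodendrocytes in its values was not tested further.

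Rap1a and Rap1b are the near-identical GTPases on which these factors act, and their probe sets held different values from each other and from every other probe set. Rap1a read 13.05, 13.32 and 13.27 in CKO and 13.14, 12.58 and 13.4 in control (difference 0.17, 95% interval -0.52 to 0.86). Control replicate 2 was the lowest array, and without it the difference was -0.06. Rap1b, the main Rap1 form of platelets and leukocytes, read 14.72, 15.24 and 14.83 in CKO and 15.47, 15.12 and 15.03 in control (difference -0.28, 95% interval -0.92 to 0.37). Its lowest value was on CKO replicate 1 and its highest on control replicate 1.

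**Figure D2:**
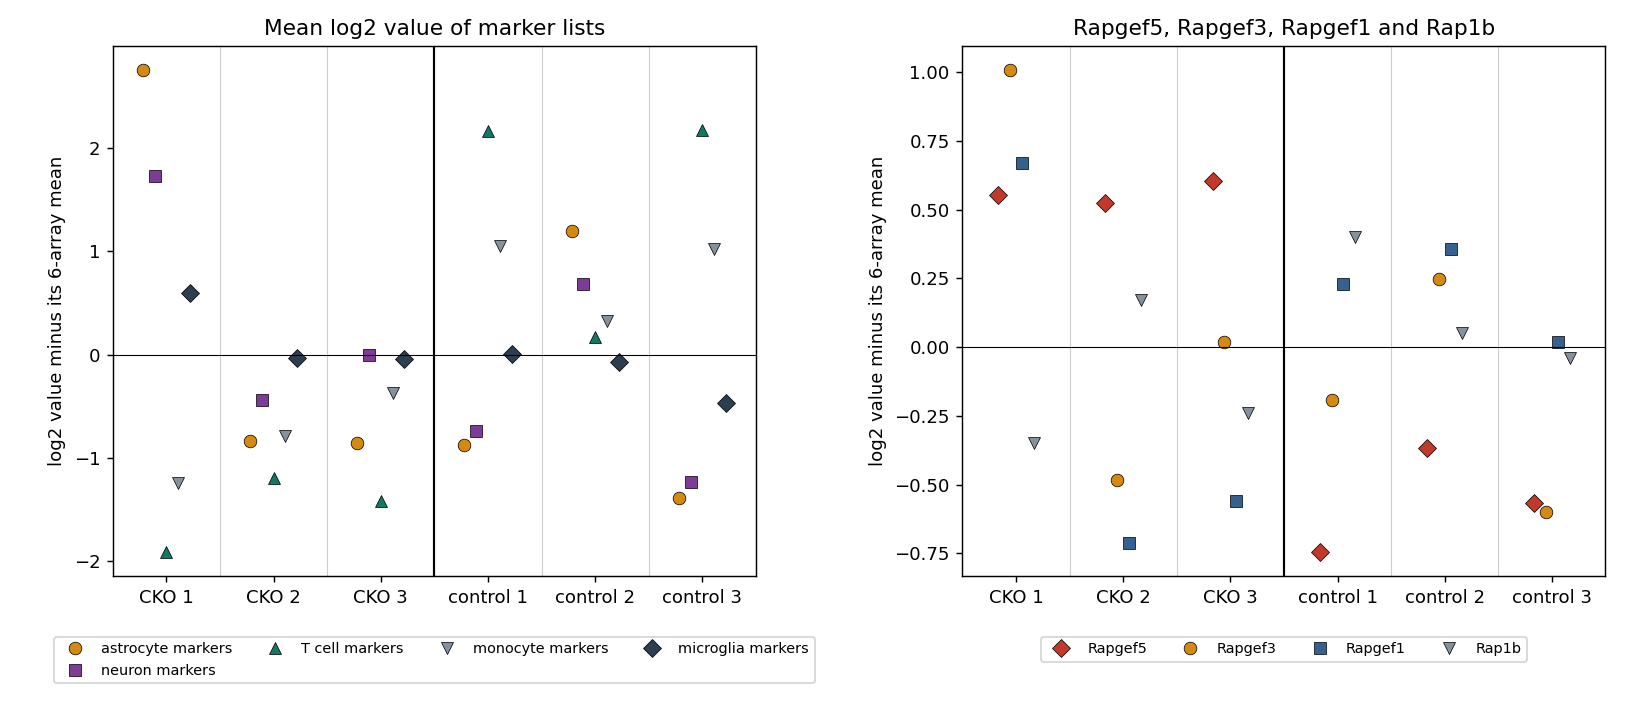
Mean log2 value of 5 marker lists (left) and log2 values of 4 genes (right) on each array, each minus its own mean over the 6 arrays, with CKO left of the thick line and control right of it. Astrocyte and neuron markers peak on CKO replicate 1 and control replicate 2, as Rapgef3 and Rapgef1 do within each group. Rapgef5 is highest on control replicate 2 among the controls, and its 3 CKO values lie within 0.08 of each other. T cell and monocyte markers are higher on the control arrays.

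Around the members, 69 of 74 listed genes of the Rap pathway were measured, in 7 groups. None was called over all probe sets (lowest limma adjusted p = 0.172), and at an unadjusted p under 0.05 there were 1 higher (1.45%) and 9 lower (13%), beside 3.55% higher and 6.35% lower over all probe sets. The median difference was -0.05. CKO arrays lay all above control for 3 genes (4.35%, beside 5.94% of all probe sets) and all below for 10 (14.5%, beside 8.48%). The genes named for each group below are the 2 with the highest mean, a rule that does not use their difference, and others are said to have been picked from their values.

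Of 7 other Rap activators, Rasgrp3 was the one with all CKO arrays above control. Rasgrp3 encodes an exchange factor for Rap1 and Ras that answers to diacylglycerol. It read 15.1, 15.23 and 14.9 in CKO and 14.54, 14.56 and 13.84 in control, a difference of 0.76 (SE 0.30, limma adjusted p = 0.462). Its CKO values lay within 0.33 of each other, and control replicate 3 was the lowest. Dock4, another Rap activator, differed by 0.19 with overlapping groups. Among those picked from their values, Rasgrp2, the calcium-dependent Rap1 activator of platelets and leukocytes, differed by -0.44 without overlap. Rasgrp1, prominent in T cells, differed by -1.37 with CKO replicate 1 at 10.45, above control replicate 2 at 10.32.

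Of the 2 promoter windows of Rasgrp3, 1 also held the PU.1 core, which 2.44% of all windows hold. It was looked for after the Rasgrp3 values were seen, and no other gene of the pathway lists was searched. The core is in capitals for comparison with the upstream Rapgef5 sequence.
Rasgrp3, chr17:75435835-75435882, plus strand: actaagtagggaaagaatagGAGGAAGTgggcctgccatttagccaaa

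GAPs end Rap signalling. Of 7 measured GAPs, 3 had a positive and 4 a negative difference, with a median of -0.09 and overlap in each. Sipa1, a Rap GAP of blood cells, read 12.28, 11.15 and 10.82 in CKO and 12.3, 12.03 and 11.47 in control. Its relative Sipa1l2 differed by -0.44. Among the other Rap GTPases, Rap2c differed by -0.13 and Rap2b, picked from its values, by -0.54 (7.31, 6.8 and 6.9 in CKO, 7.51, 7.57 and 7.54 in control). Rap1gds1, a chaperone-like partner of Rap1 and other GTPases, differed by -0.05.

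Effectors carry the signal of active Rap. Of 11 measured, 5 had a positive and 6 a negative difference, with a median of -0.02. Apbb1ip (RIAM), which links Rap1 to talin, read 13.45, 13.61 and 12.93 in CKO and 13.58, 13.18 and 12.96 in control. Mink1, a kinase bound by Rap2, differed by -0.09. Map4k4, a related kinase picked from its values, had all CKO arrays above control and differed by 0.39.

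The integrin machinery held the most negative difference of the pathway, that of Itgal. Tln1, which encodes the talin that opens integrins, differed by -0.11, and Itgam, the alpha chain of the myeloid integrin Mac-1, by 0.02. Of the 13 genes, 4 (30.8%) had all CKO arrays below control, beside 8.48% of all probe sets. These 4, picked from their values, were Itgal and Itgb2, the chains of the integrin LFA-1, the T cell adaptor Skap1 and the kinase Stk4 (Mst1). Itgal read 7.45, 7.38 and 8.48 in CKO and 11.15, 8.99 and 11.06 in control (difference -2.63, SE 0.60, limma adjusted p = 0.176). Itgb2 differed by -1.30 (adjusted p = 0.172), Stk4 by -1.35 and Skap1 by -1.22. Beside these genes, all 8 measured T cell markers had every CKO array below control, with a median difference of -2.89. Of 10 monocyte markers, 7 did so (median -1.75). Of 7 measured B cell markers, 2 did so (median -0.88), and their mean was 5.53 to 6.62 in CKO and 7.02 to 7.84 in control. Control replicate 2 had the lowest T cell level of the controls (8.54) and the lowest Itgal, Itgb2 and Skap1 among them, whereas Stk4 was lowest on control replicate 3 (9.08). The part of T cells, monocytes and B cells in these values was not tested.

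Upstream of Rapgef1, the ubiquitin ligase Cbl, which binds Crk, differed by -0.11 and Cblb by -0.60. Dok1 and Dok2, inhibitory adaptors of blood cells picked from their values, had all CKO arrays below control and differed by -1.01 and -1.91. Of 19 measured genes of cyclic AMP supply and breakdown, 11 had a positive and 8 a negative difference. Pde3b, a phosphodiesterase, read 16.35, 16.48 and 16.52 in CKO and 15.92, 16.27 and 15.66 in control, a difference of 0.50 without overlap. Gnas, the stimulatory G protein, differed by -0.19. Adcy7, an adenylyl cyclase of immune cells, and Pde4b, a phosphodiesterase of inflammatory cells, both picked from their values, differed by -1.02 and -0.81 without overlap.

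**Figure D3:**
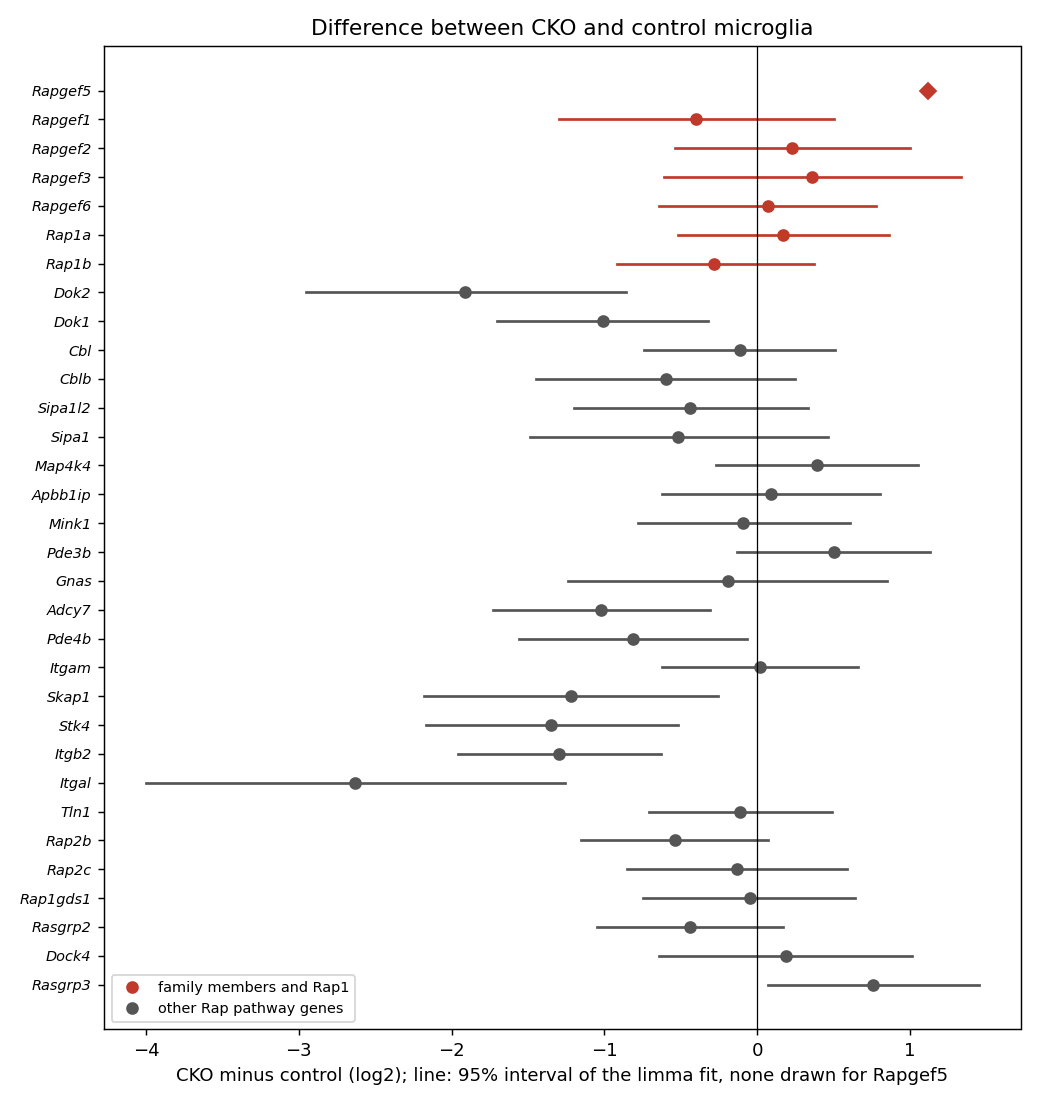
Difference in log2 value, CKO minus control, for the 7 measured members (red) and for pathway genes named in the text (grey). Rasgrp1, Rap1gap and Adcy8 are not drawn. Points are differences of group means over 3 arrays each, and lines are 95% intervals of the limma fit, with none drawn for Rapgef5. The intervals of the other 6 members include 0, and the lowest points are Itgal at -2.63 and Dok2 at -1.91.

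The profile of Rapgef5 over the 6 arrays was set against 17084 other genes by the root mean square difference of values centred on each gene's own mean. Closest was Cldn34b3, a claudin-family gene, at 0.127 log2 units. It was followed by Zfp57, an imprinting regulator, at 0.145, Lyve1, a hyaluronan receptor of border macrophages and lymphatic vessels, at 0.151, Ppil6 at 0.159, the protocadherin gene Dchs1 at 0.165 and Got1l1 at 0.165. All 6 were chosen for having the pattern, so their separation of the groups is no separate result. Lyve1 read 8.3, 8.55 and 8.44 in CKO and 6.9, 7.43 and 6.98 in control. Cldn34b3, Zfp57 and Got1l1 read 3.81 to 5.73 over all arrays, below the array medians of 7.13 to 7.34. Of 4 promoter windows matched for Zfp57 and Ppil6, none held the PU.1 core.

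**Figure D4:**
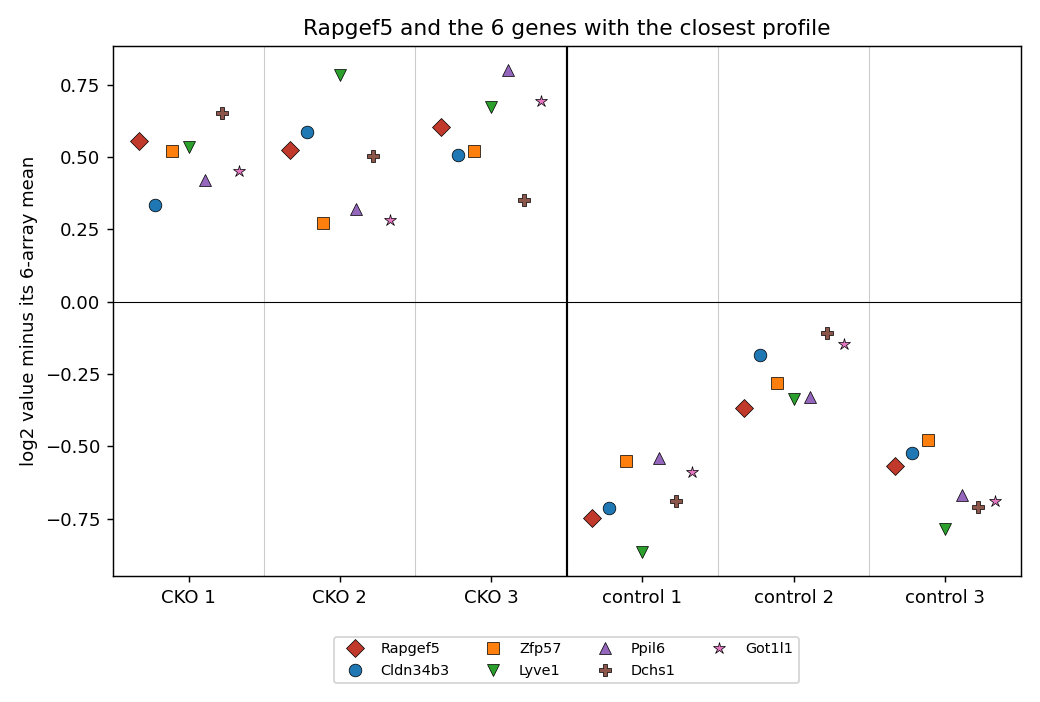
Log2 values of Rapgef5 and of the 6 genes with the closest profile, each minus its own mean over the 6 arrays, on each array with CKO left of the thick line. All 7 genes lie above 0 on the CKO arrays and below 0 on the control arrays, and control replicate 2 is the highest control for each.

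Among its own pathway, the genes nearest to Rapgef5 were Rasgrp3 at 0.334 log2 units (place 234), Adcy8 at 0.342 (place 273) and Pde3b at 0.344 (place 288). Members lay farther away, from 0.566 for Rapgef2 (place 4409) to 0.886 for Rapgef1 (place 13542). Because Rapgef5 was chosen for its group difference, these places partly restate each gene's own difference and are no separate result. Of the 9 measured microglial markers, 3 had all CKO arrays above control, namely P2ry12, Gpr34 and Fcrls. The receptor gene Fcrls read 18.82, 18.36 and 18.31 in CKO and 17.4, 17.82 and 16.64 in control (difference 1.21, limma adjusted p = 0.312). Gpr34, a lysophospholipid receptor of microglia, differed by 0.89, and Tmem119, a further microglial marker, by -0.44 with overlapping groups.

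**Figure D5:**
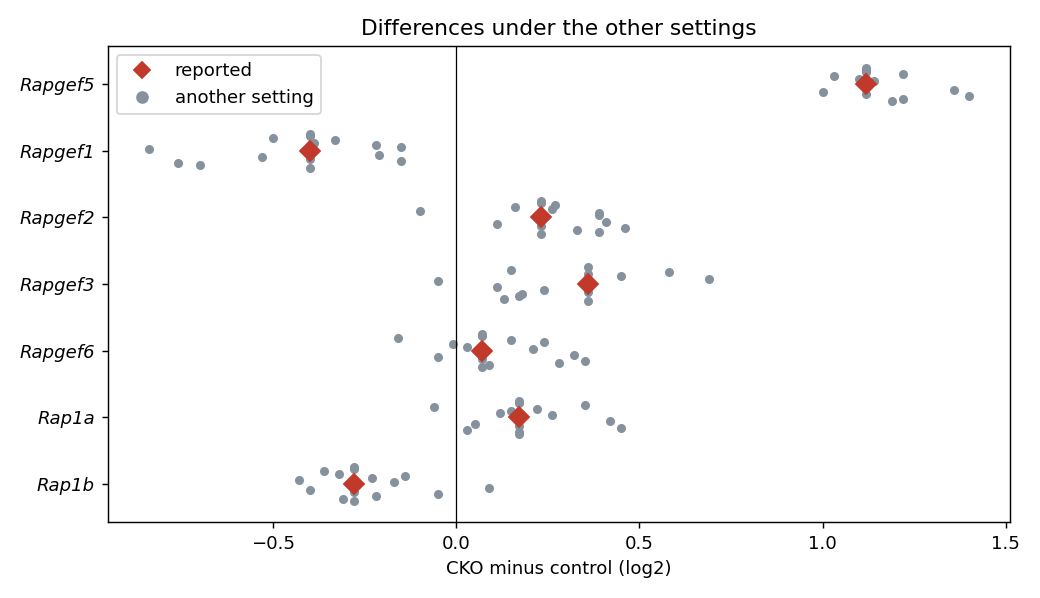
Difference in log2 value, CKO minus control, of each measured member as reported (red diamond) and under every other setting tried (grey points). Rapgef5, chosen for its difference, lies between 1 and 1.40, and the points of Rapgef2, Rapgef3, Rapgef6, Rap1a and Rap1b fall on both sides of 0.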

How the data were processed

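Per the labels' protocols, microglial RNA was isolated by TRIzol and biotin-labelled cDNA was hybridised to Affymetrix arrays. The authors deposited log2 values. RMA is named in the submitters' processing notes, while its settings and version and the annotation build are not stated there. That the scale is log2 was read from the values, which span 2.93 to 19.93. Of 22206 probe sets, 19572 carry 1 symbol and 2634 are unnamed here. The fit covered all probe sets, CKO minus control and two-sided, with the limma package (version 3.58.1, R version 4.3.3), and p-values were adjusted by Benjamini-Hochberg at 0.05. The code was tested on simulated data. Signal over background was not used, and 3 arrays a group limit the precision. The members, marker lists and pathway lists were chosen with earlier results of these data known. The pathway genes named by rule were called genes and the 2 of each list with the highest mean. For likeness, predicted genes, olfactory and vomeronasal receptors and small RNAs were passed over. Motifs were searched on both strands of the 250 bases before each start, from RefSeq GRCm38.p6. The alternatives were other normalizations, filters on dim probe sets, other limma settings, a replicate block and leaving out arrays.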

Additional observations from a re-analysis of the deposited data

How the results depend on the processing

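Rapgef5 was chosen for its difference and its groups do not overlap, so leaving out arrays cannot turn its sign, and the dim filters, the block, the trended fit and the mean of its 1 probe set return 1.12 by construction. Its difference was 1.36 under quantile normalization, 1.40 under cyclic loess and 1 under median centring, which lowers the median of all differences by 0.12. It ran from 1.03 to 1.22 over the 6 fits that leave out 1 array. Of the other members, 0 were called under any setting, while small differences changed sign: Rap1b was 0.09 under quantile normalization, Rapgef6 was -0.05 under median centring, -0.01 without CKO replicate 3 and -0.16 without control replicate 3, Rapgef3 was -0.05 without CKO replicate 1, Rapgef2 was -0.10 without CKO replicate 3 and Rap1a was -0.06 without control replicate 2. The highest values with 1 array left out were 0.39 for Rapgef2, 0.69 for Rapgef3, 0.24 for Rapgef6 and 0.35 for Rap1a. Rapgef3 has no value without the dimmest 50% of probe sets. Calls among the 69 measured Rap pathway genes numbered 9 with array weights, all lower. Among all 22206 probe sets that setting called 1694, of which 637 were higher. The fits that leave out 1 array gave 0 to 8 pathway calls. Without CKO replicate 1 they numbered 8, all lower, beside 2209 over all probe sets, of which 1113 were higher. Without control replicate 2 they numbered 2 (Itgal and Dok2, lower), beside 125 over all probe sets, of which 0 were higher. With both astrocyte-rich arrays left out, a setting chosen after seeing the data, the pathway calls numbered 12. Of these 11 were lower, Rap1gap being the exception, beside 2516 over all probe sets, of which 1121 were higher. Over all probe sets the calls numbered 1 under quantile normalization, 1 without the dimmest 20% or 50%, 4 in a trended robust fit, 1694 with array weights, 44 at an adjusted p of 0.1 and 2516 with both astrocyte-rich arrays left out. Leaving out 1 array gave 0 to 2209. CKO replicate 1 gave the 2209 and control replicate 2 gave 125. The replicate number as a block gave 0 calls over all probe sets and 0 among members. Same-numbered arrays did not deviate together (correlations of -0.00548, -0.23 and 0.254 for replicates 1, 2 and 3), so the numbers were not taken as pairs. The cause of these shifts was not tested.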
